A study of Homo sapiens with 12 samples.

Results

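Tumour cells act on macrophages through secreted and surface molecules, and 10 genes that encode such signals were followed: CSF1, CCL2, MIF, SPP1, WNT7B, GAS6, CD47, CD24, ANXA1 and LGALS3. The genes were taken by symbol from the deposited expression table of 58735 genes, and each of the 10 symbols matched 1 row. Of the 10, 7 had a mean of at least 1 FPKM (fragments per kilobase of gene length, scaled for sequencing depth) over the 12 libraries and were tested. The other 3, SPP1, MIF and CCL2, were too low to judge by that threshold and did not enter the main test.

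The libraries came from TFK1, an established human cholangiocarcinoma line, and the labels ask how nab-paclitaxel makes such cells more sensitive to radiation, with effects on macrophages named in the title. Cells were left untreated (control), irradiated with 6 Gy, given nab-paclitaxel at 1.62 ng/ml, which is paclitaxel bound to albumin, or given the same drug and dose of radiation together (combination). Each of these 4 groups has 3 labelled biological replicates, all cells are labelled as wild type, and RNA was taken 24 h after treatment. A single line was used, no solvent or albumin control is named in the labels, and p-values measure the spread between these cultures only.

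CSF1 is the growth factor that keeps macrophages alive through its receptor CSF1R, and CCL2 draws monocytes in through CCR2. CD47 and CD24 are surface signals that hold back phagocytosis by binding SIRPA and SIGLEC10 on the macrophage. GAS6 bridges exposed phosphatidylserine to the receptors TYRO3, AXL and MERTK. MIF and SPP1 (osteopontin) are secreted proteins that bind CD74 and CD44, WNT7B is a Wnt ligand, LGALS3 is a galactose-binding lectin, and ANXA1 is a phospholipid-binding protein whose released form acts on formyl peptide receptors.

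Epithelial markers were abundant and macrophage markers close to 0. Of 16 macrophage markers 0 reached a mean of 1 FPKM, and C1QA and C1QB were at 0 in all libraries. Summed over the 16, these markers lay between 0.921 and 1.42 FPKM in the control libraries and between 1.88 and 2.87 after radiation. The sum was 1.23 to 1.25 FPKM with nab-paclitaxel and 1.68 to 2.07 with the combination, and the part of these small sums in the results was not tested. Of 10 biliary epithelial markers 7 reached 1 FPKM, among them KRT19 with a mean of 418.7 and EPCAM with 107. KRT7 (0.533) and MUC1 (0.296) were among those that did not. Of 9 fibroblast markers 2 reached 1 FPKM, COL1A1 (mean 5.70) and ACTA2 (1.87), and of 8 lymphocyte and endothelial markers 0 did. COL1A1 had a mean of 6.85 in control and 4.23 in the combination, and ACTA2 0.964 and 3.05. No test of these 2 genes is given here. Libraries held 14840283 to 17992242 fragments, recovered as whole numbers from FPKM and gene length.

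Control 2, nab-paclitaxel 1 and combination 2 stood apart from the other libraries of their groups, as earlier results of these data had shown, and this touches several of the 10 genes. Their scores on the second principal component of the tested genes (22.0% of the variance) were 30.6, 28.6 and 3.64, and no library of the same group scored higher. In these libraries CD24, CD47 and ANXA1 were higher than in the rest of their group in all 3 cases. CD24 exceeded the mean of the other 2 libraries by 0.54, 0.61 and 0.28 on the log2(FPKM + 1) scale, CD47 by 0.54, 0.27 and 0.37, and ANXA1 by 0.40, 0.58 and 0.25. WNT7B was lower by the same measure, at -0.43, -0.21 and -0.24, and so was CSF1, at -0.13, -0.12 and -0.19. LGALS3 and GAS6 went both ways. The part of these 3 libraries in the results below was not tested beyond fits that leave them out. They were picked from these same data, so leaving them out narrows the spread of genes that deviate in them. A pass gained only in such a fit is therefore not independent support.

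**Figure D1:**
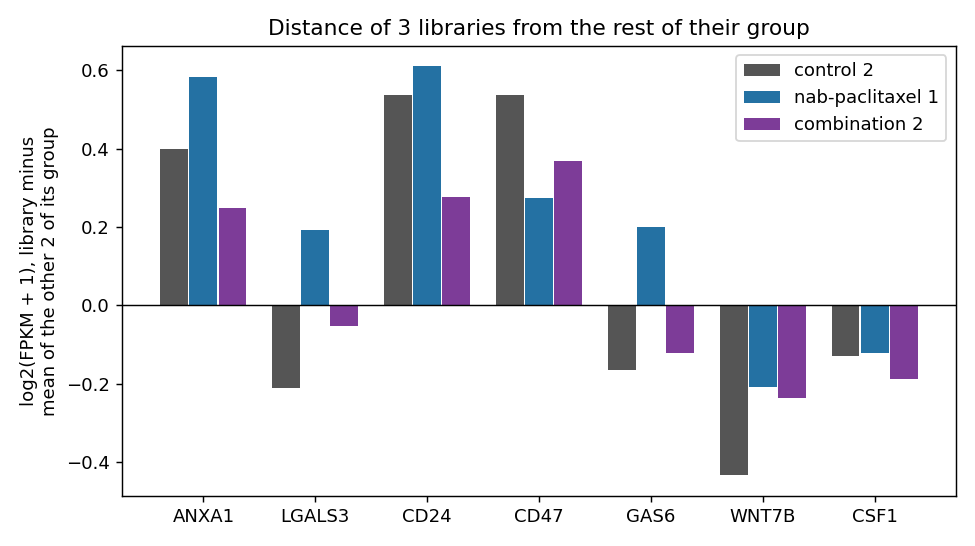
Distance of control 2, nab-paclitaxel 1 and combination 2 from the mean of the other 2 libraries of their group, on the log2(FPKM + 1) scale, for the 7 tested genes. CD24, CD47 and ANXA1 are above 0 in all 3 libraries, while WNT7B and CSF1 are below 0 in all 3.

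ANXA1 and CD24 are shown by their promoters, because ANXA1 fell with radiation, CD24 was above all control libraries there without passing the test, and both were higher in the libraries named above. The sequences are RefSeq promoters of build GRCh38.p14, running from 250 bases before to 50 bases after the annotated start. Capitals mark TATAAA and CCAAT on either strand, and no base of the CD24 window is marked.
ANXA1 (chr9:73151615-73151914, plus strand): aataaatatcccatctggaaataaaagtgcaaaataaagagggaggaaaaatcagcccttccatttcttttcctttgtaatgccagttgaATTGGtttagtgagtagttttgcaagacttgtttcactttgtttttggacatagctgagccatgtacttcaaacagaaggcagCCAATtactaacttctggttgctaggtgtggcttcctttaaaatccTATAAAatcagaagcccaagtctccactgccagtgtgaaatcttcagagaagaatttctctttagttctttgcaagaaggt
CD24 (chr6:106975578-106975877, minus strand): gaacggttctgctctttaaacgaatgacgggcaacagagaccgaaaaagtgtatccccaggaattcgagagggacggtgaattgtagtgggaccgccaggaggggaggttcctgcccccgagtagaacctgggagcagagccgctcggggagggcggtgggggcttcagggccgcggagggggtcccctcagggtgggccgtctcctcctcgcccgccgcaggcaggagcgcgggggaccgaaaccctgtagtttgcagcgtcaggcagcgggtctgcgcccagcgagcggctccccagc
The ANXA1 window is poor in G and C (37.7%) against a median of 58.7% over all RefSeq promoters, and the CD24 window is rich in them (66.7%). In ANXA1 the letters TATAAA begin at position -31 from the start and CCAAT at -77, and the reverse complement ATTGG at -160. TATAAA is present in 11.5% of 35116 RefSeq promoters and CCAAT in 34.6%. The AP-1 motif TGANTCA (7.71% of promoters), the E-box CACGTG (7.26%) and a kappaB motif (1.91%) were searched on both strands and matched neither window. RefSeq lists further CD24 starts, and the window shown is that of the start of the deposited gene. The window of another CD24 start (chr6:106973990-106974289) has ATTGG at -35. Promoters were found for 7 of the 10 genes. A match describes the letters only.

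In untreated cells ANXA1 was the highest of the 10, followed by LGALS3, CD24, CD47, GAS6, WNT7B and CSF1. SPP1, MIF and CCL2 were all below CSF1 in the control libraries. SPP1, with 14 to 39 fragments in each of them, was above MIF (1 to 4) and CCL2 (0) in FPKM. MIF and CCL2 were too low to be ordered. FPKM is a level per length, here all annotated exonic bases of a gene, so the order between genes is approximate. Which transcripts of each gene were present was not examined. Control means were 64.2 ± 11.4 FPKM for ANXA1 (SD, n = 3), 27.7 ± 3.02 for LGALS3, 24.4 ± 5.79 for CD24 and 10.8 ± 2.76 for CD47. They were 5.92 ± 0.834 for GAS6, 4.83 ± 0.958 for WNT7B and 1.42 ± 0.158 for CSF1. LGALS3 and CD24 overlapped in their control ranges, and so did GAS6 and WNT7B. The ranges of the other neighbours among these 7 genes did not overlap. Among the 13609 tested genes, the mean over all libraries put ANXA1 at the 96.0th percentile and CSF1 at the 12.7th.

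**Figure D2:**
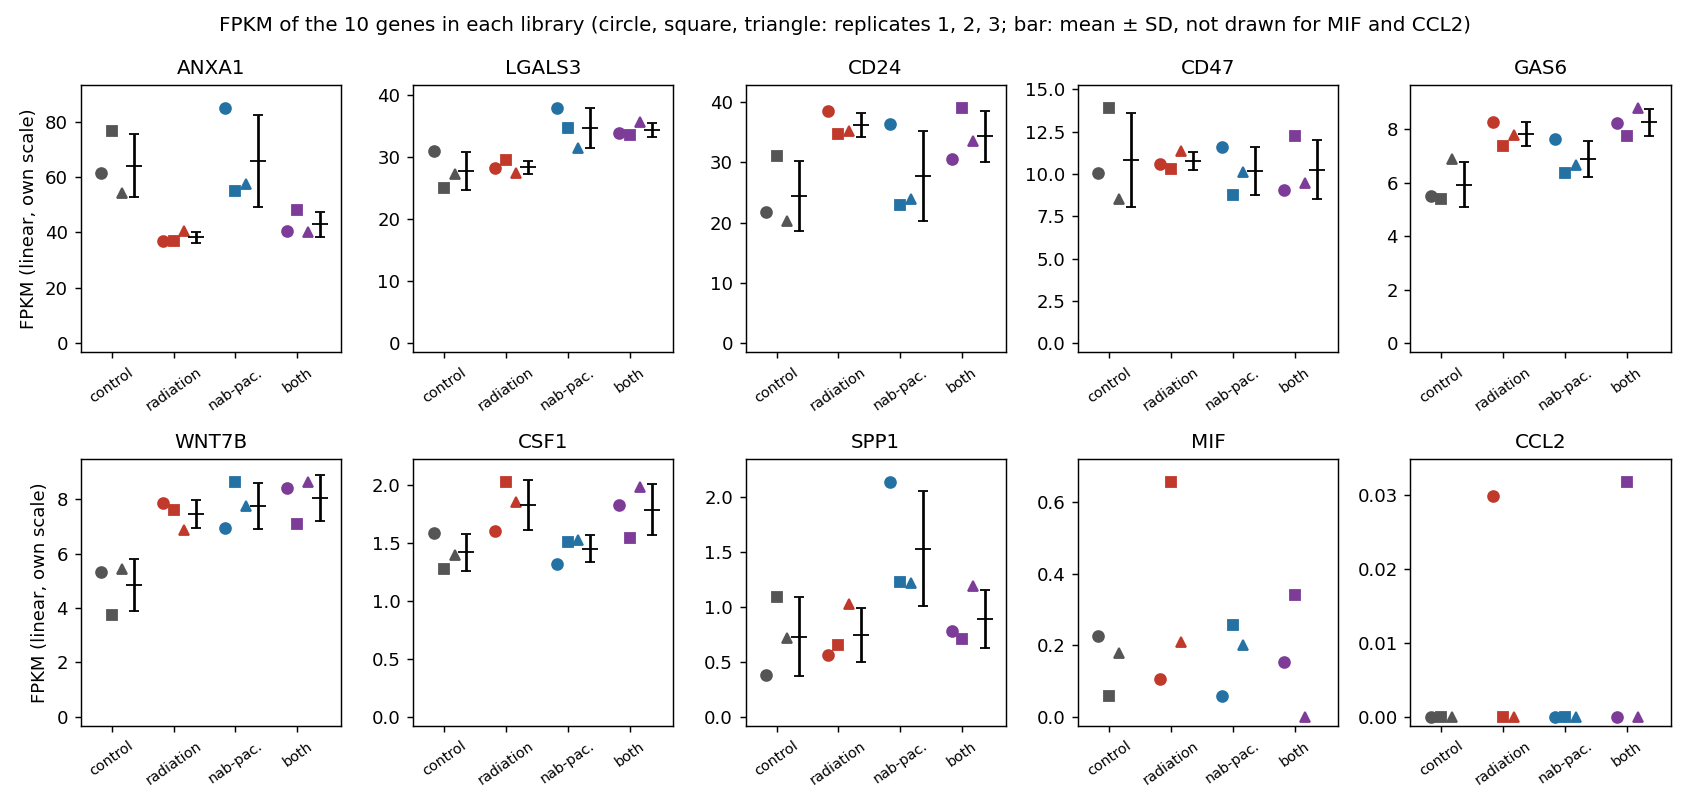
FPKM of each of the 10 genes in each of the 12 libraries, by group, on a linear axis of its own for each gene, with group means ± SD at the right of each group (not drawn for MIF and CCL2). ANXA1 is lower in all 6 libraries that received radiation than in the other 6, WNT7B is lowest in the 3 control libraries, and CCL2 is at 0 in 10 of 12 libraries.

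MIF was too low to judge in this table. The control libraries list it at 0.226, 0.0587 and 0.179 FPKM, the radiation libraries at 0.107, 0.655 and 0.209, the drug libraries at 0.0573, 0.257 and 0.200, and those given both at 0.153, 0.341 and 0. These are 46 fragments over 12 libraries, of which 13 are in radiation 2. MIF (ENSG00000240972) lies on chromosome 22, 23894004 to 23895227 in build hg38, which all gene positions here refer to, and all of its coding bases are also exonic in another annotated gene of GENCODE release 29. MIF-AS1, on the opposite strand, covers 100% of them, and the readthrough gene AP000350.4, on the same strand, covers 68.7%. These genes were low as well, with means of 0.167 FPKM (MIF-AS1) and 0.0427 FPKM (AP000350.4). Of the 696 protein-coding genes in the table with all coding bases shared in this way, 5.32% had a mean of at least 1 FPKM, against 57.7% of the 14363 with none shared. The classes hold different genes, so these shares do not measure an effect of the counting. How fragments that fall on 2 genes were counted is not known here, and its part in the level of MIF was not tested. DDT, the homologue of MIF, was low too (0.116 FPKM) and has 59.3% of coding bases shared. Of the 4863 genes with some shared 59.4% reached 1 FPKM. The part of shared bases in the level of DDT was not tested either.

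**Figure D3:**
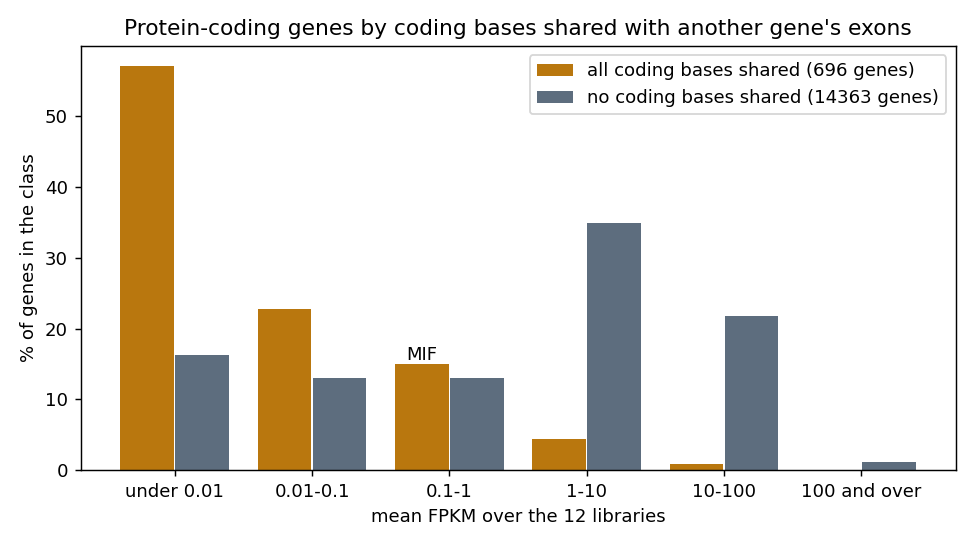
Share of protein-coding genes (vertical axis, %) by mean FPKM over the 12 libraries (horizontal axis), in 6 classes, for 696 genes whose coding bases all lie in exons of another gene and 14363 genes with none shared. Of the first class 57.0% are under 0.01 FPKM, against 16.3% of the second, and MIF lies in the bar marked with its name.

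CCL2 (ENSG00000108691, chromosome 17, 34255218 to 34257203) was at or under the limit of detection. A single fragment was seen in radiation 1 and another in combination 2, and 0 in the other 10 libraries, although none of its exonic bases are shared with another gene. A count of 0 allows up to 3 fragments, which in these libraries is 0.0839 to 0.0999 FPKM for CCL2, counting error only. No difference between groups was detectable at this depth.

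SPP1 (ENSG00000118785, chromosome 4, 87975650 to 87983426) was just outside the threshold, with a mean of 0.974 FPKM over all libraries, and CSF1 was the lowest of the 10 genes inside it, with 1.62. SPP1 had 0.379, 1.09 and 0.713 FPKM in the control libraries, 0.562, 0.650 and 1.03 after radiation, 2.13, 1.23 and 1.22 with the drug, and 0.780, 0.705 and 1.19 with both. The 3 nab-paclitaxel libraries were above all 9 others, and they rest on 50 to 78 fragments each. When all genes entered the fit, nab-paclitaxel against control gave 0.55 ± 0.20 on the log2(FPKM + 1) scale (adjusted p = 0.233). With limma's voom on fragments of all genes with a mean of at least 1 fragment, chosen after seeing the data, it gave 1.12 ± 0.36 (adjusted p = 0.0858). SPP1 thus passed in neither fit. The highest value was in nab-paclitaxel 1, one of the libraries that stood apart.

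A gene is said to have risen or fallen where limma gave a Benjamini-Hochberg adjusted p under 0.05 over all 13609 tested genes, and log2 fold changes carry their SE. With radiation WNT7B rose and ANXA1 fell, so 2 of the 7 tested genes passed against control, where 5.93% of all tested genes passed (2.48% higher and 3.45% lower). With nab-paclitaxel WNT7B rose, 1 of the 7, where 8.82% of all tested genes passed (5.41% higher and 3.41% lower). With the combination WNT7B, GAS6 and LGALS3 rose and ANXA1 fell, 4 of the 7, where 22.9% passed (12.2% higher and 10.6% lower). Groups did not overlap in 5, 2 and 4 of the 7 genes in these comparisons, beside 28.4%, 26.1% and 37.3% of all tested genes.
The median log2 fold change of the 7 was 0.22, 0.17 and 0.30, beside -0.02, 0.04 and 0.0036 over all tested genes. For nab-paclitaxel the share of higher genes among all that passed was 61.3%, and 48.3% with quantile normalization or 49.3% with size factors over the tested genes. The 3 comparisons share the control libraries.

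**Figure D4:**
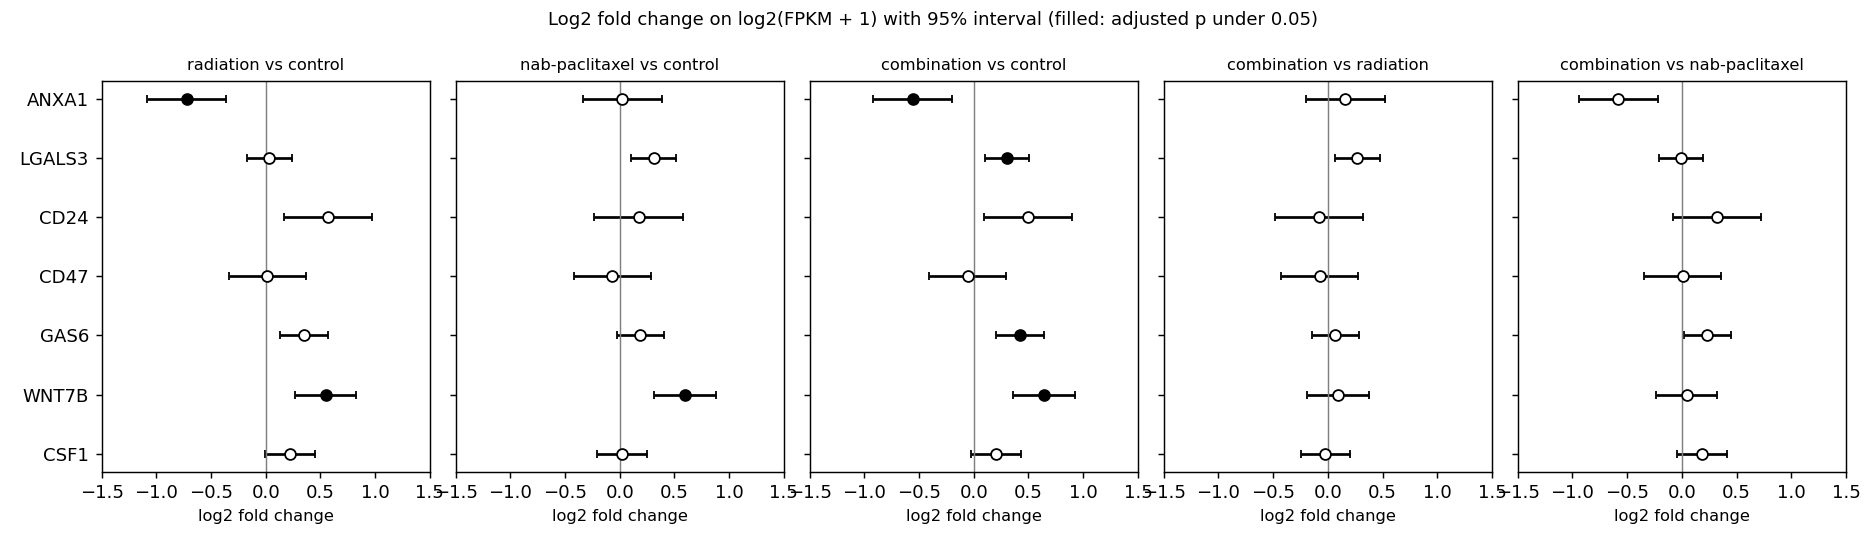
Log2 fold change on log2(FPKM + 1) with its 95% interval for the 7 tested genes in 5 comparisons, filled where the adjusted p was under 0.05. WNT7B is filled in all 3 comparisons with control, ANXA1 in radiation and the combination against control, and GAS6 and LGALS3 in the combination against control.

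ANXA1, a phospholipid-binding annexin (ENSG00000135046, chromosome 9, 73151757 to 73170393), fell with radiation. It was at 61.6, 76.6 and 54.3 FPKM in control and at 37.0, 37.0 and 40.5 after radiation. Every radiation library was below every control library, a change of -0.72 ± 0.16 (adjusted p = 0.0256). Nab-paclitaxel alone gave 84.8, 55.0 and 57.6 FPKM, a range that overlaps that of control (0.02 ± 0.16, adjusted p = 0.947, 95% interval -0.34 to 0.38). The combination gave 40.6, 48.1 and 40.1 FPKM, again below all control libraries (-0.56 ± 0.16, adjusted p = 0.0304). The combination also lay below all nab-paclitaxel libraries, by -0.58 ± 0.16, but missed the threshold (adjusted p = 0.0805), and passed it without the 3 libraries that stood apart (-0.47, adjusted p = 0.00717).
The fall of ANXA1 with radiation was lost without control 1 (adjusted p = 0.0644), control 2 (0.0671), radiation 1 (0.0966), radiation 2 (0.101) or radiation 3 (0.0696). The fall in the combination was lost without control 1 (0.0607), control 2 (0.0897), combination 1 (0.0921) or combination 3 (0.101). With no filter on low values both were lost (adjusted p = 0.0770 and 0.0892), while without the 3 libraries that stood apart both held (-0.59, adjusted p = 0.00116, and -0.51, adjusted p = 0.00127). With the replicate number as a block the fall with radiation was lost (adjusted p = 0.0507) and that in the combination held (0.0473).

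CD24, a small glycosylphosphatidylinositol-anchored mucin-like protein (ENSG00000272398, chromosome 6, 106969831 to 106975627), was higher after radiation without passing the test. Control libraries had 21.8, 31.0 and 20.3 FPKM, and radiation libraries had 38.5, 34.8 and 35.2. These groups did not overlap, with a difference of 0.57 ± 0.18 (adjusted p = 0.0986). Nab-paclitaxel gave 36.3, 22.9 and 23.9 FPKM (0.17 ± 0.18, adjusted p = 0.588), and the combination 30.5, 38.9 and 33.5 (0.49 ± 0.18, adjusted p = 0.0752), both overlapping control. In control and in nab-paclitaxel a single library, control 2 and nab-paclitaxel 1, was far above the other 2. Without control 2 the difference with radiation was 0.75 (adjusted p = 0.0326), and without nab-paclitaxel 1, which enters through the shared spread, the adjusted p was 0.0332. For the combination these adjusted p were 0.0197 and 0.0262. Without all 3 libraries that stood apart CD24 passed in both, higher by 0.75 ± 0.06 with radiation (adjusted p = 3.98e-04) and by 0.58 ± 0.07 with the combination (adjusted p = 6.79e-04). The smaller SE of these fits is partly a result of that choice of libraries, since CD24 was high in all 3. It also passed with TPM scaling in both (0.0294 and 0.0332) and with voom in the combination (0.0493). The table also lists 3 short CD24 pseudogenes (219 to 243 bases). Their likeness to CD24 and their levels were not examined. A split of fragments between them and CD24 was not tested, and the level of CD24 is uncertain to that extent.

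CD47, the ligand of SIRPA (ENSG00000196776, chromosome 3, 108043094 to 108091862), did not pass in any comparison, and all groups overlapped. Control libraries had 10.1, 13.9 and 8.52 FPKM, radiation 10.6, 10.3 and 11.4, nab-paclitaxel 11.6, 8.75 and 10.1, and the combination 9.03, 12.2 and 9.48. Control 2, nab-paclitaxel 1 and combination 2 were each the highest of their group. The 95% intervals against control were -0.34 to 0.37 for radiation, -0.42 to 0.29 for nab-paclitaxel and -0.41 to 0.30 for the combination. A change within these bounds on the log2 scale could not be told from 0.

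WNT7B, a secreted Wnt ligand (ENSG00000188064, chromosome 22, 45920362 to 45977129), was the only one of the 7 tested genes that rose in all 3 comparisons with control. Control libraries had 5.33, 3.73 and 5.44 FPKM. Radiation gave 7.88, 7.62 and 6.87, nab-paclitaxel 6.93, 8.62 and 7.73, and the combination 8.41, 7.08 and 8.63. Every treated library was above every control library. The rises were 0.55 ± 0.13 with radiation (adjusted p = 0.0281), 0.60 ± 0.13 with nab-paclitaxel (adjusted p = 0.0189) and 0.64 ± 0.13 with the combination (adjusted p = 0.00483). The combination did not exceed either single treatment beyond the spread (0.09 ± 0.13 over radiation, adjusted p = 0.692, and 0.05 ± 0.13 over nab-paclitaxel, adjusted p = 0.917).
The rise in the combination held in all 12 fits without 1 library (adjusted p up to 0.0249). The rise with radiation was lost without control 2 (adjusted p = 0.0530), radiation 1 (0.114), radiation 2 (0.107) or radiation 3 (0.0647), and that with nab-paclitaxel without nab-paclitaxel 2 (0.0597). Both were also lost with no filter on low values (0.0765 and 0.0539), with TPM scaling (0.0838 and 0.0661) and with only the 2 groups compared in the fit (0.0710 and 0.141). With the replicate number as a block the rise with radiation was lost too (adjusted p = 0.0568).

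GAS6, the ligand of the TYRO3, AXL and MERTK receptors (ENSG00000183087, chromosome 13, 113820549 to 113864067), rose with the combination. It was at 5.50, 5.39 and 6.88 FPKM in control and at 8.24, 7.73 and 8.77 in the combination, without overlap (0.42 ± 0.10, adjusted p = 0.0109). This call held in all 12 fits without 1 library (adjusted p up to 0.0498). Radiation libraries had 8.26, 7.38 and 7.79 FPKM, also above all control libraries, but the difference of 0.35 ± 0.10 missed the threshold (adjusted p = 0.0608). It passed without control 3 (adjusted p = 0.0300) and without nab-paclitaxel 1 (0.0378), and with quantile normalization (0.0350) or size factors over the tested genes (0.0444). Without the 3 libraries that stood apart it was 0.30 and passed as well (adjusted p = 0.0433). Nab-paclitaxel alone gave 7.62, 6.35 and 6.66 FPKM, which overlapped control (0.19 ± 0.10, adjusted p = 0.250).
The antisense gene GAS6-AS1 shares 421 of the 6006 exonic bases of GAS6, and no source here says if the strand entered the counting, so the values of the pair are uncertain. GAS6-AS1 fell with the drug, from 4.69, 4.08 and 4.72 FPKM in control to 1.48, 2.55 and 2.84 with nab-paclitaxel (-0.76 ± 0.14, adjusted p = 0.0117) and 2.69, 2.26 and 2.83 with the combination (-0.61 ± 0.14, adjusted p = 0.0102). With radiation it had 4.33, 4.33 and 4.21 FPKM and did not pass (adjusted p = 0.896). With only the 2 groups compared in the fit, the fall with nab-paclitaxel was lost (adjusted p = 0.120).

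LGALS3, which encodes the lectin galectin-3 (ENSG00000131981, chromosome 14, 55124110 to 55145413), was higher in the 6 libraries that received the drug. Control libraries had 30.9, 24.9 and 27.2 FPKM and radiation libraries 28.1, 29.5 and 27.4. Nab-paclitaxel gave 37.8, 34.6 and 31.3 FPKM and the combination 33.9, 33.5 and 35.5. All drug-treated libraries were above all libraries without the drug. The change was 0.31 ± 0.09 for nab-paclitaxel against control (adjusted p = 0.0593) and 0.27 ± 0.09 for the combination against radiation (adjusted p = 0.101), and neither passed.
LGALS3 rose with the combination against control (0.30 ± 0.09, adjusted p = 0.0367), but this call was lost in 8 of 12 fits without 1 library, with the adjusted p up to 0.120. Those libraries were control 2 and 3 (0.0944 and 0.0908), radiation 1, 2 and 3 (0.0579, 0.0546 and 0.0556) and combination 1, 2 and 3 (0.0830, 0.0604 and 0.120). With the replicate number as a block the adjusted p was 0.0526. It was also lost with no filter (0.0691), TPM scaling (0.0916), quantile normalization (0.0818), only the 2 groups compared (0.0882) and voom with a low fragment minimum (0.0742, chosen after seeing the data). The nab-paclitaxel difference passed without control 1 (adjusted p = 0.0422) or nab-paclitaxel 3 (0.0450). The difference between combination and radiation passed with only these 2 groups in the fit (adjusted p = 0.0215) and without the 3 libraries that stood apart (0.29, adjusted p = 0.0178).

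CSF1, the macrophage growth factor (ENSG00000184371, chromosome 1, 109910242 to 109930992), was low and did not pass in any comparison. Control libraries had 1.59, 1.27 and 1.39 FPKM, radiation 1.60, 2.02 and 1.85, the drug alone 1.31, 1.51 and 1.53, and the combination 1.83, 1.55 and 1.98, from 106 to 196 fragments per library. The lowest radiation library was only just above the highest control library, and the difference was 0.22 ± 0.10 (adjusted p = 0.263, 95% interval -0.0036 to 0.45). A scale with 1 FPKM added understates changes of such a low gene. The combination differed from control by 0.20 ± 0.10 (adjusted p = 0.182) and nab-paclitaxel by 0.02 ± 0.10 (adjusted p = 0.928).

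**Figure D5:**
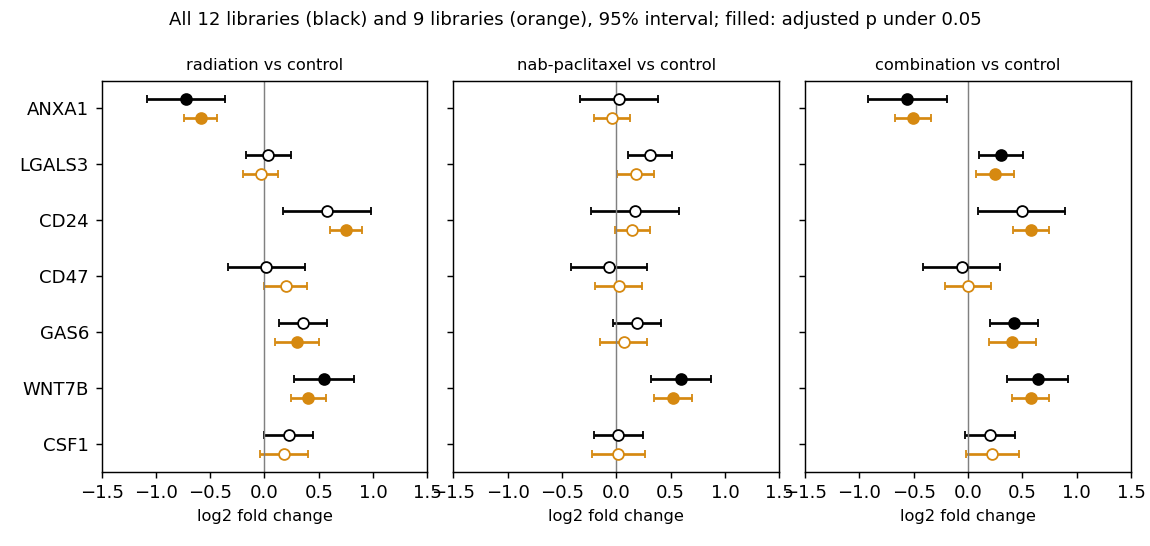
Log2 fold change against control with its 95% interval for the 7 tested genes, over all 12 libraries (black) and over the 9 libraries left without control 2, nab-paclitaxel 1 and combination 2 (orange), filled where the adjusted p was under 0.05. Intervals are narrower in orange for CD24, CD47, ANXA1, WNT7B and LGALS3, and for GAS6 and CSF1 with radiation only. CD24 becomes filled for radiation and the combination, and GAS6 becomes filled for radiation. The libraries left out were picked from these same data, so the narrower intervals are partly a result of that choice.

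Between the combination and either treatment alone, 0 of the 7 genes passed by limma. Against radiation 7.75% of all tested genes passed (4.81% higher and 2.95% lower). An unadjusted p under 0.05 was found for 1 of the 7, beside 3445 of all 13609 tested genes. The groups of that 1 gene, LGALS3, did not overlap, beside 40.5% of all tested genes. Against nab-paclitaxel 3.92% passed (1.21% higher and 2.7% lower). There 2 of the 7 had an unadjusted p under 0.05, beside 2397 of all 13609 tested genes. The groups of 3 genes, CSF1, GAS6 and ANXA1, did not overlap there, beside 20.9% of all tested genes. The share of higher genes among all that passed was 62.0% against radiation (50.9% with size factors over the tested genes) and 31.0% against nab-paclitaxel (41.8% with quantile normalization). With voom 0 and 1 of the 7 passed, the 1 being ANXA1 against nab-paclitaxel (-0.59, adjusted p = 0.0472).

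The interaction, which asks whether radiation acts differently with the drug, passed for 0 of the 7 by limma and by voom, and for 0% of all tested genes by limma, of which 443 had an unadjusted p under 0.05. WNT7B, singled out after its values were seen, was the only one with an unadjusted p under 0.05, at -0.50 ± 0.18 (adjusted p = 0.9997, 95% interval -0.90 to -0.11).

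A list of 64 receptors, processing enzymes and other macrophage-directed signals gives the setting of these genes, and 37 of them were tested. With radiation 2 rose and 3 fell, with nab-paclitaxel 4 rose and 1 fell, and with the combination 9 rose and 5 fell, beside 5.93%, 8.82% and 22.9% of all tested genes that passed in either direction. The medians of the 37 were -0.01, 0.06 and 0.07, beside -0.02, 0.04 and 0.0036 over all tested genes. In the CSF1 and CCL2 groups 0 genes reached 1 FPKM, and CSF1R itself had a mean of 0.719. Of the GAS6 group all 6 were tested, and the receptor MERTK rose with radiation from 3.56 ± 0.436 to 5.29 ± 0.305 FPKM (0.47 ± 0.09, adjusted p = 0.0101). That call was lost without radiation 1 (adjusted p = 0.0567) or radiation 3 (0.0511). AXL, the most abundant receptor of this family here, was at 15.6 ± 1.52 FPKM in control and 14.4 ± 0.580 in the combination (-0.10 ± 0.08, adjusted p = 0.398).

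Among the 10 genes of the Wnt group, WLS, which carries Wnt ligands to the cell surface, fell with radiation from 46.5 ± 1.30 to 33.7 ± 1.11 FPKM (-0.45 ± 0.07, adjusted p = 0.00315), while its cargo WNT7B rose. Both tested genes of the ANXA1 group rose with nab-paclitaxel. ANXA2, another annexin, went from 86.2 ± 4.89 to 134 ± 18.2 FPKM (0.62 ± 0.10, adjusted p = 0.00583) and to 157 ± 8.17 with the combination (0.86 ± 0.10, adjusted p = 2.07e-04). S100A11, which binds annexins, went from 91.9 ± 6.57 to 139 ± 23.7 FPKM with nab-paclitaxel (0.59 ± 0.11, adjusted p = 0.0130). Both rises with nab-paclitaxel were lost with only the 2 groups compared in the fit (adjusted p = 0.112 and 0.141). The ANXA1 receptors FPR1 (0.0696) and FPR2 (0.0124 FPKM) were under the threshold.

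CALR, the chaperone that marks cells for uptake when it reaches their surface, fell with the combination from 793 ± 130.4 to 465 ± 46.7 FPKM (-0.76 ± 0.12, adjusted p = 0.00154). CXCL8, a neutrophil-attracting chemokine, fell with the combination from 27.7 ± 7.45 to 10.0 ± 1.09 FPKM (-1.35 ± 0.22, adjusted p = 0.00145) and with radiation to 12.4 ± 1.24 (-1.07 ± 0.22, adjusted p = 0.0146). The fall with radiation was lost without radiation 1 (adjusted p = 0.0530) or radiation 2 (0.0707), and with no filter on low values (0.0518). These are RNA levels, and neither secretion nor surface display was measured in these libraries.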

How the data were processed

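RNA of 12 TFK1 libraries was sequenced. The values are FPKM in 1 table that the authors deposited, per the file headers, with gene lengths. The submitters' processing notes name build hg38. Aligner, counting tool, strand setting and the handling of fragments on 2 genes were each not given in the sources used here. For the 10 genes the deposited length equals the exonic bases of GENCODE release 29. FPKM times length gave whole multiples of 1 step (within 0.05) in 100% of values above 0, which recovers fragments. The scaling was found to use median-of-ratios size factors, not library totals. Floors cover counting error only, while intervals were computed from the SE of limma and so reflect the spread between libraries.

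Groups came from the labels. The test was limma 3.58.1 (R 4.3.3) on log2(FPKM + 1) over all 4 groups, with a trend in the variance and 8 residual degrees of freedom, on 13609 genes averaging at least 1 FPKM. Tests were two-sided, with Benjamini-Hochberg adjustment within each comparison and a threshold of 0.05. Scripts were tested on simulated data. The 10 genes and the lists were chosen with earlier results of these data known. All 10 genes were named, and of the 64 partners up to 4 per comparison with the smallest p among those that passed, of which some are described. AXL, FPR1, FPR2, CSF1R and GAS6-AS1 were named after their values were seen. Alternatives were a pseudocount of 0.1, no filter or a minimum of 5 FPKM, TPM, quantile and size-factor scaling, no trend, voom on fragments, protein-coding genes, only the groups compared, leaving out libraries, and the replicate number as a block. Same-numbered libraries of control and combination deviated together (r from 0.172 to 0.543 over genes), and 3 of 6 libraries correlated best with their own number. The highest r was between control 2 and combination 2, which both stood apart. The numbers were taken to pair at most these 2 groups, from the data and not from the labels, and no others. The main test did not use this pairing. The block was fitted over all 4 groups, so a pairing of these 2 alone was not tested.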

Additional observations from a re-analysis of the deposited data

How the results depend on the processing

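Of the 7 calls against control, those of WNT7B and GAS6 in the combination held in all 25 alternatives. The others held in 21 (WNT7B, nab-paclitaxel), 20 (ANXA1, combination), 18 (ANXA1, radiation), 17 (WNT7B, radiation) and 11 (LGALS3, combination). The cause of these losses was not tested.
The number of the 7 genes that passed for radiation against control was 2. It was 0 with no filter on low values, 0 with the replicate number as a block, 1 with only the 2 groups compared, 4 with quantile normalization, 4 without the 3 libraries that stood apart, and 0 to 4 when 1 library was left out. The calls over all tested genes moved too, from 337 higher and 470 lower to 481 and 482 with quantile normalization. For fits with fewer libraries, no filter or the block that share is not given here. The counts below are therefore not read as results about the 7 genes. For nab-paclitaxel against control it was 1, and 0 with no filter, with TPM scaling or with only the 2 groups compared, and 0 to 2 without 1 library. With TPM scaling 499 of all tested genes passed higher and 361 lower there, against 736 and 464 in the main fit. For the combination against control it was 4, and 2 with no filter and 2 to 5 without 1 library. For the combination against radiation it was 0, and 1 with only the 2 groups compared or without the 3 libraries. For the combination against nab-paclitaxel it was 0, and 1 with TPM scaling, 1 with voom, 1 with voom on genes with at least 1 fragment (chosen after seeing the data), 2 without the 3 libraries, and 0 to 1 without 1 library.
The replicate block lowered the count for the combination against control from 4 to 3 and changed no other call in that comparison. The numbers were not taken to pair control and radiation, where 0 of 6 libraries correlated best with their own number.
In all, 35 values reversed, 0 of them of a call. Without 1 library, CSF1 ranged from -0.024 to 0.070 (nab-paclitaxel against control) and from -0.080 to 0.041 (combination against radiation), and WNT7B from -0.024 to 0.12 (combination against nab-paclitaxel). CD47 ranged from -0.13 to 0.19 (radiation), -0.21 to 0.11 (nab-paclitaxel) and -0.20 to 0.12 (combination) against control, and from -0.20 to 0.0038 and -0.11 to 0.10 for the combination against radiation and nab-paclitaxel. CD24 ranged from -0.031 to 0.35 and ANXA1 from -0.17 to 0.16 for nab-paclitaxel against control. LGALS3 ranged from -0.035 to 0.11 (radiation against control) and -0.075 to 0.056 (combination against nab-paclitaxel).
With other settings, ANXA1 for nab-paclitaxel against control was -0.0044 (TPM scaling), -0.16 (quantile), -0.021 (size factors over the tested genes) and -0.038 (without the 3 libraries). LGALS3 for the combination against nab-paclitaxel was 0.066 (quantile), 0.017 (size factors) and 0.073 (without the 3 libraries), and for radiation against control -0.035 (without the 3 libraries). CSF1 was -0.0059 for nab-paclitaxel against control (size factors), and 0.081 (quantile) and 0.041 (without the 3 libraries) for the combination against radiation. CD47 without the 3 libraries was 0.022 for nab-paclitaxel against control and -0.023 for the combination against nab-paclitaxel. No scaling moved the median of all tested genes by 0.1 or more on the log2 scale. Depth limits SPP1, MIF and CCL2, with 452, 46 and 2 fragments over the 12 libraries.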
